A study of Mus musculus with 18 samples.

Results

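The genes described here are Bex1, Bex2, Bex4, Espn, Cytl1, Mia, Myb and Dstn, 8 of the 31053 features counted in single cells of the mouse mammary gland. All were counted in the mammary rudiment, the small epithelial tree present just before birth. The question is whether and when each is lost afterwards, and whether any adult cell holds it again. Dstn was not particular to the rudiment, as some later glands held it at a higher level. The members were picked by name with their level in E18.5 mammary epithelium, in skin and in later glands already known from these data. Every comparison with E18.5 is therefore a description without a test, and tests were kept to adult and pregnancy-cycle libraries, in fits that held no E18.5 value. As levels in later glands were known as well, the p-values of these tests are not free of that choice.

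RNA was counted in 18 libraries made with the 10x Chromium 3' method, which tags each RNA molecule with a unique molecular identifier (UMI). C57BL/6 mice gave the E18.5 mammary and adjacent skin libraries, both from embryos carrying an Lgr5-GFP reporter that guided the dissection, the glands of postnatal day 5 and of pre-puberty (2.5 weeks), the terminal end buds (TEBs) and ducts cut at 5 weeks from E-cadherin-GFP females, and an adult virgin gland at 10 weeks. SWISS mice gave 1 adult virgin library at 10 weeks. FVB/NJ mice gave 3 adult virgin libraries at 10 weeks (A10, P7 and D12), 2 of pregnancy day 12.5 (H and G), 2 of pregnancy day 18.5 (F4 and B4), 2 taken at 10 days of lactation (F11 and D6) and 1 post-involution library, taken 3 weeks after birth in the labels but after weaning in the study's text. Cells were sorted after removal of blood and endothelial cells, on CD24 and CD29, from pooled animals wherever their number is stated, and the reporter alleles were in no other group.

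Library totals ran from 9920346 to 93234616 UMIs, and 132599 of 149371 barcodes were kept as cells. Only the 4 FVB/NJ stages from adult to lactation had more than 1 library, and the adult lineage tests used 5 libraries of 3 strains, so p-values measure the spread between such pools. The E18.5 mammary library shared 75 barcodes with the skin library, 0 with postnatal day 5, 0 with pre-puberty and 1 with adult C57BL/6. The E18.5 library and the later C57BL/6 whole glands thus came from different barcode sets, and age and barcode set cannot be told apart there. TEBs and ducts shared 14 each with the E18.5 mammary library and 0 and 1 with pre-puberty, so the same holds for the step to puberty. Adult P7 had barcodes of 14 bases, against 16 in A10 and D12, and shared 0 with either. The library labelled skin, given as adjacent epidermis, held 9025 cells, of which 53.4% fell in fibroblast clusters, 1.64% in the epidermal cluster and 3.20% (289 cells) in the cluster of mammary rudiment cells. The sorted E18.5 mammary library held 6398 cells, 4898 of them in the rudiment cluster, 724 epidermal and 435 fibroblast. Epithelial cells were grouped as basal, luminal progenitor and alveolar (LP/alveolar) and mature luminal (ML) by marker genes, with the 8 members kept out of the genes that shaped the clusters.

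The mammary gland starts as a thickening of the embryonic skin that sinks into the mesenchyme, sprouts and forms a small branched rudiment. After birth the rudiment becomes a layered duct, with contractile basal cells outside and luminal cells inside, and grows little until puberty. Bex1, Bex2 and Bex4 belong to the brain expressed X-linked family, small and largely unfolded adaptor proteins that lie with the related Tceal genes in a cluster on the X chromosome and have been tied to growth factor signalling and the cell cycle. Espn encodes espin, which bundles actin in microvilli and in the stereocilia of inner ear hair cells. Dstn encodes destrin, an actin depolymerising protein of the cofilin family. Cytl1 and Mia encode secreted proteins known from cartilage, and Myb encodes a transcription factor that holds blood progenitors in an immature state.

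The promoters of the family are shown first, because Bex1 and Bex4 went together across the libraries and share most of their upstream sequence. The 300 bases are those from 250 before to 50 after the gene start in RefSeq on GRCm38.p6, which matches the mm10 build named in the submitters' processing notes. Bex1 lay at chrX:136213972-136215513 on the minus strand, with its promoter at chrX:136215464-136215763, and Bex4 at chrX:136138996-136140443 on the plus strand, with its promoter at chrX:136138746-136139045. Capitals mark the longest run of bases that the pair shares.
Bex1: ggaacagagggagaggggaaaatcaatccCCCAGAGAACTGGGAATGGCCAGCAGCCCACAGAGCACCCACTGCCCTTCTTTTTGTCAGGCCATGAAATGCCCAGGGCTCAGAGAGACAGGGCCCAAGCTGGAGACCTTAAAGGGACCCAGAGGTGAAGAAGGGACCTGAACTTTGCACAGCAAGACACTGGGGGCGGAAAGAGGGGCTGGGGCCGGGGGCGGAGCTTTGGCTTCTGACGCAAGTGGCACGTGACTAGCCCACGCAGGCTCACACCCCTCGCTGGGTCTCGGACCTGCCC
Bex4: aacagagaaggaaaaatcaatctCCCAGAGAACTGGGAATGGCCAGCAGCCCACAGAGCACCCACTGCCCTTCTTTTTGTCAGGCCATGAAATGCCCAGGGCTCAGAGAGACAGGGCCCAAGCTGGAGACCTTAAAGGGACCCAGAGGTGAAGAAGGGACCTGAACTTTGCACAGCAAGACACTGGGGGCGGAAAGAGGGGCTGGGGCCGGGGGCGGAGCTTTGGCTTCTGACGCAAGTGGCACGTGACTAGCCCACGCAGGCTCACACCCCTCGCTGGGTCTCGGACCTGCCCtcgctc

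The shared run was 271 bases long and was found in 2 of all the promoters of the table, these 2. Over the aligned stretch of 294 bases, 291 were identical (99.0%). The capitals hold the letters CACGTGAC, which on either strand (reverse GTCACGTG) were in 2.25% of 32851 promoter windows. Among the other members no window held them, while the Bex3, Tceal1, Tceal6 and Tceal8 windows of the same X-linked cluster did, those of Bex6, Tceal7 and Tceal9 did not, and Tceal3 and Tceal5 held them in 2 of 3 windows each.

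Bex2 formed a second pair with Bex3, a family gene of the same cluster that is no member here and that the later results use for contrast. Bex2 lay at chrX:136066565-136068236 on the minus strand, with its promoter at chrX:136068187-136068486, and Bex3 at chrX:136270253-136271978 on the plus strand, with its promoter at chrX:136270003-136270302. Capitals again mark the longest shared run, of 162 bases.
Bex2: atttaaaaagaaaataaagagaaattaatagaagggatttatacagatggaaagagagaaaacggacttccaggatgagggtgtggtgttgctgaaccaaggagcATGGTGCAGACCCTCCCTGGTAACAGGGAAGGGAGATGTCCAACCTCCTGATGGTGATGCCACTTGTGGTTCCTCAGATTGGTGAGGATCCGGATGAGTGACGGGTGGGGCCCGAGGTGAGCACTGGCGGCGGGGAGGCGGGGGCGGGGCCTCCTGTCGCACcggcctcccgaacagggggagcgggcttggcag
Bex3: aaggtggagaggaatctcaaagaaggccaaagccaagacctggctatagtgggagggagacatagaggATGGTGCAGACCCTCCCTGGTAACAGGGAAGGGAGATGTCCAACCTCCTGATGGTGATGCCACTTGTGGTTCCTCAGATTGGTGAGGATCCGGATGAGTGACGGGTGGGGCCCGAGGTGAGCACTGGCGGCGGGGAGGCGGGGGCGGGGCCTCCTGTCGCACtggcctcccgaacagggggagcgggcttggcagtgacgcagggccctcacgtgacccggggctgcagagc

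The other members lay apart from each other, Espn at chr4:152120331-152152414 and Mia at chr7:27179741-27181149 on the minus strand, Myb at chr10:21124930-21160984 on the minus strand, Cytl1 at chr5:37735519-37739820 and Dstn at chr2:143915331-143943324 on the plus strand. Since the method reads transcript ends, the last 300 bases of each gene were searched for 50-base words held by other genes. Bex1 shared 21 of 251 words with Bex2, and Mia shared 160 of 251 with Gm21983, a gene that overlaps it, so counts of Mia in particular depend on how reads in the overlap were assigned. Bex2, Bex4, Espn, Cytl1, Myb and Dstn shared 0.

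At E18.5 all 8 genes were counted in the rudiment cells, at levels given as CPM, the usual scaling of a gene's count by all UMIs of the summed cells. The 95% intervals beside them cover counting error only. Bex1 stood at 191 CPM (187 to 195), Bex4 at 139.7 (136 to 143) and Bex2 at 84.7 (82.0 to 87.5). Espn stood at 243 CPM (239 to 248) and Dstn at 1087 (1078 to 1097). Among the secreted proteins, Mia stood at 252 CPM (247 to 257) and Cytl1 at 146 (143 to 150.1), and the transcription factor Myb at 49.7 (47.6 to 51.8). These values and the shares below are those that chose the members.

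To compare cells at equal depth, each cell was thinned to 2000 UMIs and 283 shallower rudiment cells were left out. Of the remaining 4615 cells, 28.8% had a Bex1 UMI, 13.0% a Bex2 UMI and 21.5% a Bex4 UMI. Espn was in 37.7%, Mia in 39.6%, Cytl1 in 16.2%, Myb in 9.73% and Dstn in 84.8%. Without thinning, at a median of 8329 UMIs, the shares were 64.6% for Bex1, 40.4% for Bex2, 54.4% for Bex4, 77.2% for Espn, 79.5% for Mia, 38.2% for Cytl1, 31.5% for Myb and 96.8% for Dstn.

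Fibroblasts of the same library, which should lack epithelial genes, gave the background. All 435 fibroblasts had a median of 5494 UMIs before thinning. The 389 deep enough for thinning carried Bex1 in 9.51%, Espn in 8.23%, Cytl1 in 8.23% and Mia in 7.46% at equal depth. Fibroblasts of the skin library, at a median of 6316 UMIs, carried Espn in 0.298%, Cytl1 in 0.0425% and Mia in 0.404%, so fibroblasts held these genes far more often in the library rich in rudiment cells than in the library poor in them. The part of free RNA in this difference was not tested. The interval of every member's share in rudiment cells lay above that in the fibroblasts of the same library, the nearest pair being Cytl1 with 15.1 to 17.3% against 5.69 to 11.4%. As the shares in rudiment cells chose the members, this is a description and no result about them, and the intervals cover counting error in 1 library only. Bex1 in 3.70%, Bex2 in 1.23% and Bex4 in 2.28% of skin-library fibroblasts were above the Espn and Cytl1 shares there, and the epidermal cells of the mammary library carried Bex1 in 10.5% and Bex2 in 7.31%.

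**Figure D1:**
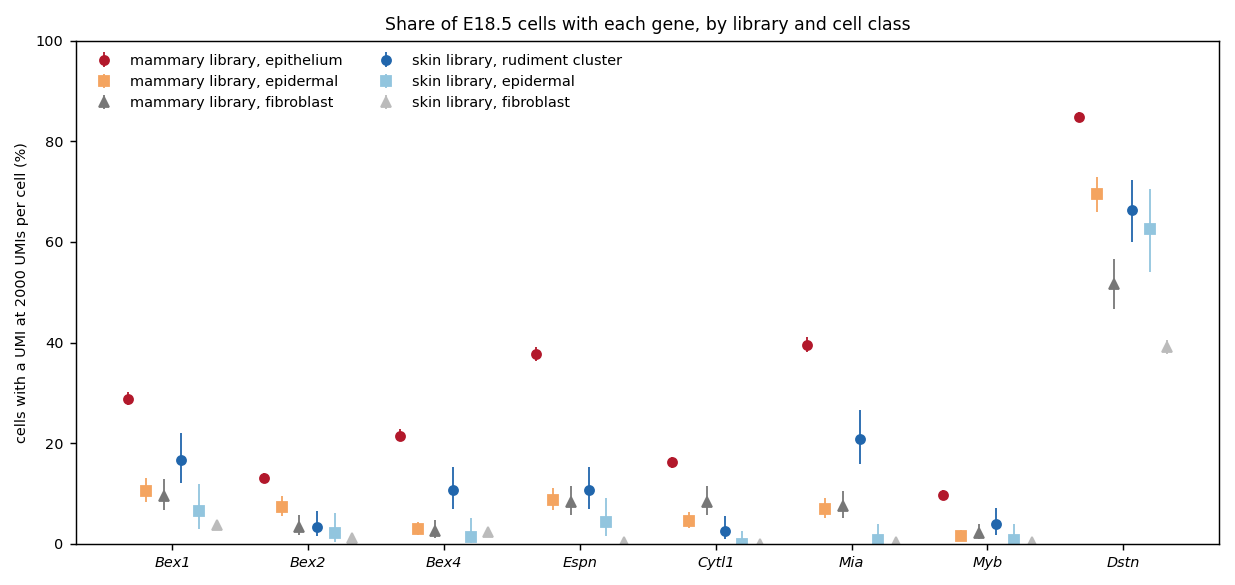
Share of E18.5 cells with at least 1 UMI of each gene after thinning every cell to 2000 UMIs (vertical axis, percent), for 3 cell classes of the mammary library and 3 of the skin library; bars are 95% Clopper-Pearson intervals. Rudiment cells of the mammary library were the highest group for each of the 8 genes, from 9.73% for Myb to 84.8% for Dstn, and these values chose the members.

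The 289 rudiment-cluster cells of the skin library carried the members too. Their level was 187 CPM of Mia, 109 of Bex1, 99.2 of Espn, 88.9 of Bex4 and 22.9 of Cytl1. As a share of the level in the mammary library, Mia stood at 74.0% (66.2 to 82.4), Dstn at 68.3%, Bex4 at 63.6%, Bex1 at 57.2%, Myb at 45.0%, Espn at 40.8%, Bex2 at 40.5% and Cytl1 at 15.6% (11.3 to 21.2). Cytl1 thus had the lowest share of its mammary-library level, and the 148 epidermal cells of that library held 0 Cytl1 counts, which allows up to 3.19 CPM.

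The E18.5 epithelial cells were not alike. When the library was clustered anew with the later C57BL/6 glands, 5037 of its cells fell in epithelial clusters, a set close to but not the same as the 4898 rudiment cells. Of these 2585 fell in LP/alveolar clusters, 808 in basal clusters, 44 in ML clusters and 1600 in an epithelial cluster led by cell cycle genes. Cytl1 stood at 432 CPM (417 to 447) in the cells of the basal clusters against 59.1 (55.5 to 62.9) in those of the LP/alveolar clusters. Bex1 and Bex4 went the other way, with 93.8 and 61.9 CPM in the basal and 195 and 140.2 in the LP/alveolar clusters. Espn (209 and 257 CPM), Mia (278 and 287) and Bex2 (74.3 and 70.7) were nearer to each other in the 2 classes, while Dstn was 1498 CPM in basal and 1072 in LP/alveolar clusters. As all these cells came from 1 library, the differences carry no test.

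Detection in the same cell was counted over the 4615 thinned rudiment cells. Bex4 was found in 25.2% of thinned rudiment cells with Bex1, against 21.5% of all, and in 15.4% of cells with Cytl1 and 22.7% of cells without it. Bex2 was as frequent among cells with Bex1 (13.0%) as among those without it (13.1%). The median cell held 2 of the 8 genes at this depth, 108 of 4615 cells held 0 of them, and 0 cells held all 8. In cells with a UMI of the cell cycle genes Mki67 or Top2a (25.8% of the rudiment cells), Bex1 was found in 34.2% (31.5 to 37.0) against 26.9% (25.4 to 28.4) in the others, Bex2 in 16.4% against 11.9% and Myb in 12.6% against 8.73%. Mia and Cytl1 were less frequent there, at 34.7% against 41.3% and 13.5% against 17.1%.

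By postnatal day 5 the level in epithelial cells was at least 2-fold lower than at E18.5 for 7 of the 8 members, all except Dstn. Of 8473 genes with 10 CPM or more in either library, 3.99% were that much lower, but since this contrast chose the members the count is no result about them. Cytl1 went from 146 to 0.599 CPM, with 15 counts left in 2081 cells, 244-fold lower (148 to 437). Mia was 8.79-fold lower (8.15 to 9.49) at 28.7 CPM and Espn 7.30-fold lower (6.80 to 7.84) at 33.3 CPM. The Bex genes formed a narrower group, with Bex2 at 22.9 CPM, 3.70-fold lower (3.39 to 4.05), Bex4 at 43.7, 3.20-fold lower (3.00 to 3.41), and Bex1 at 63.9, 2.99-fold lower (2.83 to 3.15). Myb was 2.57-fold lower at 19.3 CPM and Dstn 1.48-fold lower at 734 CPM. Myb was the member just inside the 2-fold limit and Dstn the one just outside it, and with a 4-fold limit 3 members remained, Espn, Cytl1 and Mia. When the fibroblast CPM of each library was subtracted, an alternative added after seeing the data, all 8 members including Dstn were at least 2-fold lower.

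The share of cells with a UMI moved in the same direction at equal depth. At postnatal day 5, 9.48% of epithelial cells had Bex1, 6.55% Bex4, 6.35% Espn, 6.11% Mia, 4.30% Bex2, 2.93% Myb and 0.0977% Cytl1, against fibroblast shares of 1.74%, 2.09%, 1.05%, 0, 1.74%, 0.348% and 0 in 287 cells of that library. A share of 0 in 287 cells allows up to 1.05%. Before thinning, median depths were 10311 UMIs in all 2081 epithelial cells and 3952 in all 302 fibroblasts.

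The day 5 level differed between the cell classes. Bex1 stood at 95.9 CPM in LP/alveolar, 88.8 in ML and 11.1 in basal cells, and Bex4 at 61.5, 100.1 and 8.03. Against the E18.5 cells placed in the same clusters, this was 195 to 95.9 CPM for Bex1 in LP/alveolar and 93.8 to 11.1 in basal cells. Mia showed the other order, with 10.6 CPM in ML, 33.3 in LP/alveolar and 102 in basal cells. Of the 15 Cytl1 counts, 8 were in basal cells. The cluster led by cell cycle genes held 737 of the 2081 cells, with 51.9 CPM of Bex1, 28.0 of Bex4, 22.6 of Bex2, 22.1 of Myb, 15.1 of Espn and 9.64 of Mia.

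The day 5 library was also 33.2% epidermal, against 11.3% of the E18.5 mammary library. Its epithelium held Lef1 at 29.4, Msx1 at 28.4 and Wnt10b at 15.4 CPM, genes also active in hair follicles, against 0.0612, 0.459 and 0.153 at pre-puberty, and Msx1 and Wnt10b stood at 0.737 and 1.04 at E18.5. These genes belong to a list of 9 embryonic mammary genes. Of the others, Msx2 (24.0 and 7.47 CPM) and Sox11 (20.7 and 1.74) were also higher at day 5 than at pre-puberty. Sox9 (334 and 518), Tbx3 (35.6 and 117), Sox10 (24.6 and 109.7) and Pthlh (36.6 and 59.4) were lower at day 5. Whether epidermal or hair follicle cells lay within the day 5 epithelium, and their part in its levels, was not tested.

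A member was called lost at the first stage at which every library stood under 0.25 times its E18.5 level. By this rule, applied to the pooled epithelium, Espn, Cytl1 and Mia were lost at postnatal day 5, Bex1, Bex2 and Bex4 at pre-puberty, Myb at puberty and Dstn at lactation. Within classes, Mia in basal cells was over the limit at day 5 (40.6% of the E18.5 level), under it at pre-puberty (23.1%) and over it in TEBs (54.4%) and ducts (59.7%), and Myb in ML cells was over it at day 5 (57.3%), pre-puberty (105%), in TEBs (27.3%) and in ducts (25.6%). Just inside and just outside the limit at postnatal day 5 were Espn at 13.7% and Bex2 at 27.0% of the E18.5 level. With a limit of 0.1 times, Cytl1 and Dstn kept their stage, Espn moved to pre-puberty, Bex1, Bex2, Bex4 and Myb to pregnancy, and Mia to lactation. In cells chosen by an Epcam UMI alone Bex2 was lost at postnatal day 5, and with milk transcripts taken out of the totals Dstn was lost at no stage.

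**Figure D2:**
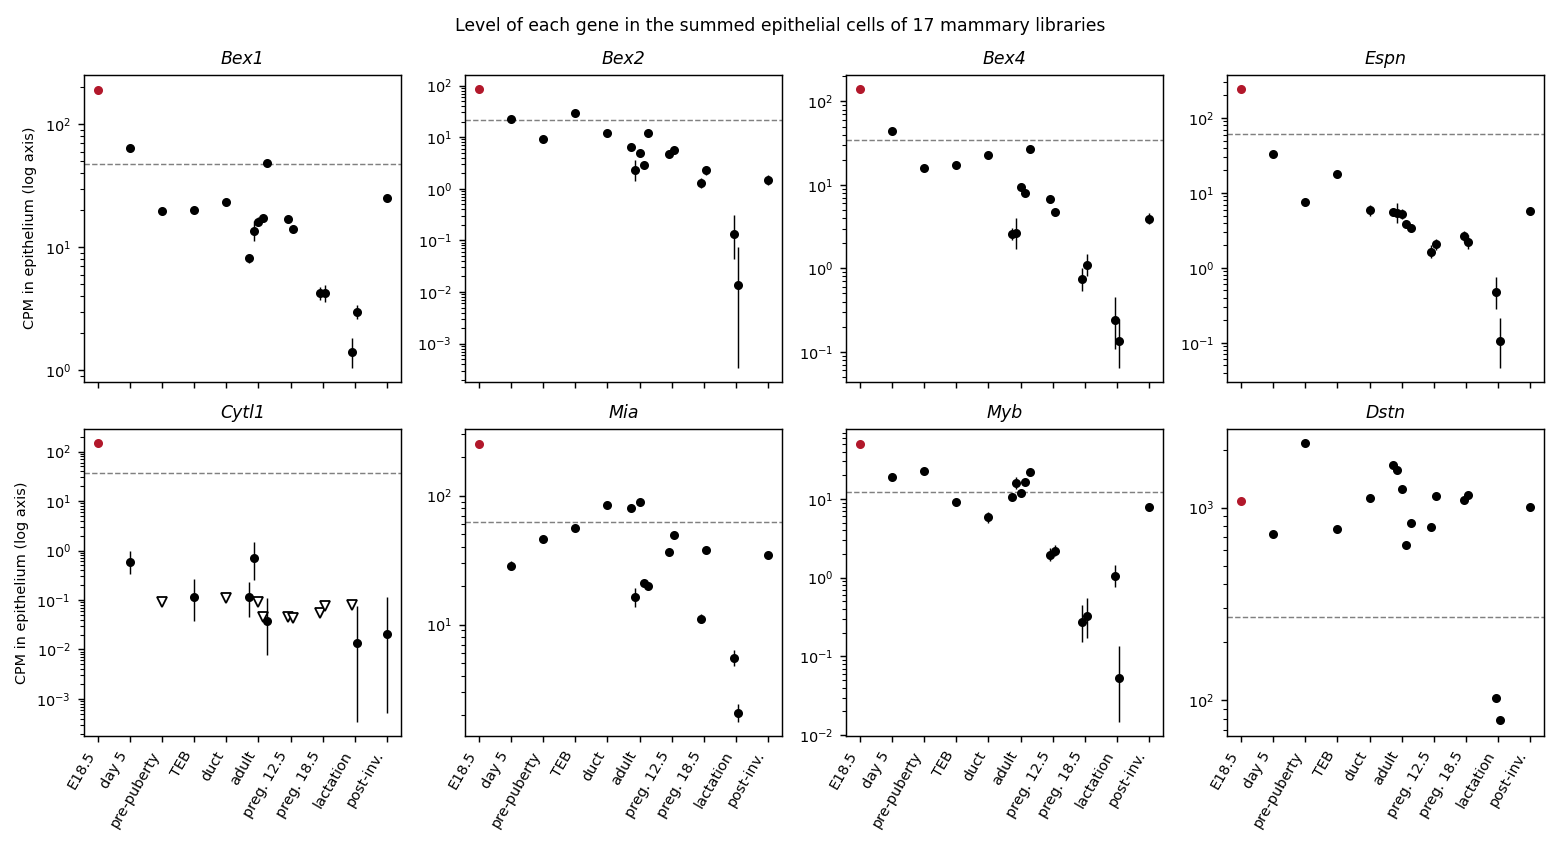
CPM of each gene in the summed epithelial cells of the 17 mammary libraries (logarithmic vertical axis), ordered by stage, with 95% counting intervals; open triangles are libraries with 0 counts, drawn at the level of 3 counts, and dashed lines mark 0.25 times the E18.5 level. Cytl1 lies under 1 CPM in all 16 postnatal libraries, and Dstn is the gene that stays above the dashed line until lactation, between 638 and 2158 CPM.

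At pre-puberty the epithelium held 19.7 CPM of Bex1, 15.9 of Bex4 and 9.40 of Bex2, and 7.62 of Espn. Mia (46.3 CPM) and Myb (22.8 CPM) stood higher than at day 5, and Dstn, at 2158 CPM, was at 198% of its E18.5 level. Basal cells were 402 of 2081 epithelial cells at day 5 and 2272 of 3401 at pre-puberty. Within basal cells Mia was lower at pre-puberty than at day 5, although its pooled level was higher. At day 5 Bex1 and Bex4 were lower in basal than in luminal cells. The part of the class mix in these pooled levels and in the loss calls was not tested. Cytl1 had 0 counts in 3401 cells, which allows up to 0.0918 CPM.

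At puberty the TEBs and the ducts differed for some members, with 1 library each and no test. Bex2 stood at 28.8 CPM in TEBs, 33.9% of the E18.5 level and above the loss limit again, and at 12.1 in ducts. Mia was above the limit again in ducts (84.1 CPM, 33.4%) and not in TEBs (56.4 CPM, 22.4%). The basal cells of the TEBs carried Bex2 at 90.4 CPM (85.2 to 95.8), against 84.7 in the E18.5 epithelium, and the basal cells of the ducts at 23.9. Espn was 27.4 CPM in ML cells of the TEBs and 7.58 in those of the ducts. Bex1 and Bex4 in ML cells had the opposite order, with 11.1 and 5.81 CPM in TEBs and 36.1 and 34.1 in ducts. Mia in basal cells was 137 CPM in TEBs and 151 in ducts, and Cytl1 had 5 counts in TEBs and 0 in ducts. TEB basal cells had a median of 26031 UMIs and duct basal cells 11924, and at 2000 UMIs Bex2 was in 14.0% of the former and 3.34% of the latter. Cells with Mki67 or Top2a were 16.4% of the TEB and 8.16% of the duct epithelium. Bex2 was in 7.26% of them and 3.44% of the others in TEBs, and in 4.35% and 1.67% in ducts. The part of cycling cells in the Bex2 difference was not tested.

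In the adult gland the 5 libraries of 3 strains were compared class by class. The classes of FVB/NJ, C57BL/6 and SWISS came from different clusterings, so class values are not fully like for like between strains. In SWISS 13.7% of the kept cells were epithelium outside the 3 classes, against 0.942% in C57BL/6. Bex1 stood in ML cells at 11.6, 25.7 and 18.6 CPM in FVB/NJ A10, P7 and D12, 14.0 in C57BL/6 and 66.5 in SWISS. In LP/alveolar cells it stood at 6.17, 8.29 and 33.7 CPM in A10, P7 and D12, 30.8 in C57BL/6 and 53.8 in SWISS, and in basal cells from 0.764 to 7.19. The basal range lay under that of the ML cells and overlapped that of the LP/alveolar cells, and SWISS was the highest library in all 3 classes.

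Whether a class held a member more than another was tested with edgeR's quasi-likelihood test on the summed counts, with the library as a block and Benjamini-Hochberg adjustment over 13176 genes. Of the 7 members tested, 4 were higher in LP/alveolar than in basal cells (23.6% of all genes were called higher) and 3 were lower (25.3% of all genes). Of the same 7, 3 were higher in ML than in basal cells (29.6% of all genes) and 3 were lower (32.7% of all genes). Calls between lineages were thus frequent among all genes. Cytl1 did not pass the filter on low counts. Both comparisons use the same basal cells.

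Bex1 was higher in both luminal classes, with a log2 fold change of 2.73 ± 0.48 (SE) in LP/alveolar (adjusted p = 0.000579, edgeR) and 2.65 ± 0.47 in ML cells (adjusted p = 0.000414, edgeR) against basal cells. Myb was higher by 3.31 ± 0.38 in ML (adjusted p = 1.4e-05, edgeR) and by 1.12 ± 0.40 in LP/alveolar cells (adjusted p = 0.0344, edgeR). Myb is known in the breast as a target of estrogen signalling, and ML cells are the hormone-sensing class. Espn was higher by 1.18 ± 0.39 in LP/alveolar (adjusted p = 0.0244, edgeR) and 1.05 ± 0.39 in ML cells (adjusted p = 0.0334, edgeR). Bex4 was higher by 1.41 ± 0.45 in LP/alveolar cells (adjusted p = 0.022, edgeR), while its difference of 0.99 ± 0.44 in ML cells missed the threshold (adjusted p = 0.0703, edgeR).

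Bex2 differed in direction from Bex1 and Bex4 and was higher in basal cells. It stood in basal cells at 15.0, 4.97, 8.04, 6.62 and 26.0 CPM in A10, P7, D12, C57BL/6 and SWISS, and at 1.38 to 5.80 in LP/alveolar and 1.08 to 2.92 in ML cells. Within each library the basal value was the highest, and the basal and ML ranges did not overlap. Cell cycle genes were lower than in basal cells too, 4 of 8 in LP/alveolar and 7 of 8 in ML cells by edgeR. A cluster led by such genes was counted as basal in FVB/NJ and SWISS, but not in C57BL/6. At 2000 UMIs Bex2 was found in 3.93% of SWISS epithelial cells with Mki67 or Top2a and 1.70% of those without, in 3.08% and 0.928% in A10, in 1.86% and 0.519% in C57BL/6, and in 0.990% and 0.983% in D12. The part of cycling cells in the Bex2 difference was not tested. The log2 fold change against basal cells was -1.99 ± 0.27 in LP/alveolar (adjusted p = 8.43e-05, edgeR) and -2.52 ± 0.27 in ML cells (adjusted p = 8.53e-06, edgeR). Mia was lower than in basal cells by -1.90 ± 0.22 in LP/alveolar (adjusted p = 2.18e-05, edgeR) and -2.77 ± 0.22 in ML cells (adjusted p = 1.23e-06, edgeR). Dstn was lower by -1.84 ± 0.11 (adjusted p = 2.99e-07, edgeR) and -1.54 ± 0.11 (adjusted p = 6.23e-07, edgeR).

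The calls of Bex1, Bex2 and Dstn held under all 11 alternatives in both comparisons, as did those of Mia and Myb for ML cells. Without 1 library each, the LP/alveolar call was lost for Bex4 without D12 (adjusted p = 0.138, edgeR) or C57BL/6 (0.111), for Espn without A10 (0.0629) or D12 (0.06) and for Myb without P7 (0.0753), C57BL/6 (0.19) or SWISS (0.125). The ML call of Espn was lost without A10 (adjusted p = 0.138, edgeR) or SWISS (0.132). With the 3 FVB/NJ libraries alone, the LP/alveolar calls of Bex4 (adjusted p = 0.208, edgeR) and Myb (0.804) were lost. Without the library block, the LP/alveolar calls of Mia (adjusted p = 0.0854, edgeR), Bex4 (0.268), Espn (0.0914) and Myb (0.0527) and the ML call of Espn (0.111) were lost. Library totals in place of TMM lost the LP/alveolar call of Myb (adjusted p = 0.0707, edgeR).

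Set against the E18.5 epithelium by the same limit of 0.25 times, Myb in ML cells was over the limit in every adult library, as at each earlier stage, at 22.6, 33.6, 21.9, 25.2 and 37.7 CPM in A10, P7, D12, C57BL/6 and SWISS, from 44.0 to 75.9% of the E18.5 level of 49.7. The basal cells held Myb at 0.764 to 3.85 CPM and the LP/alveolar cells at 2.41 to 9.66, and neither range reached the ML one. In the pooled epithelium, the basis of the loss call, Myb was over the limit in P7 (32.5%), C57BL/6 (33.4%) and SWISS (44.1%) and under it in A10 (21.1%) and D12 (23.8%). Dstn, which had not been lost by then, was over the limit in all 3 classes of all 5 libraries, at 125 to 291% of the E18.5 level in basal, 49.0 to 93.1% in ML and 37.8 to 67.3% in LP/alveolar cells.

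Mia was over the limit in the basal cells of some libraries. It stood at 180.0 CPM in A10 and 175 in D12, 71.4% of the E18.5 level at most, but at 66.4 in C57BL/6, 48.5 in SWISS and 34.0 in P7, so 3 of 5 libraries were over it. In LP/alveolar cells D12 alone was, at 27.0% of the E18.5 level, and in the whole epithelium A10 (31.8%) and D12 (35.4%) were. In basal cells the FVB/NJ libraries thus spanned the whole range, and P7 was the lowest. P7 had the lowest total of 9920346 UMIs and also barcodes of 14 bases, against 16 in A10 and D12, and these cannot be told apart. C57BL/6 and SWISS shared 39 barcodes with each other but 4 and 2 with A10, so strain and barcode set cannot be told apart either. SWISS was over the limit for Bex1 in LP/alveolar (28.2% of the E18.5 level) and ML cells (34.8%) and for Bex2 in basal cells (30.6%), and the other 4 libraries were not. In the whole epithelium SWISS was just over it for Bex1 as well, at 25.2% (24.2 to 26.2).

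Espn, Cytl1 and Bex4 were over the limit in no adult class. Espn reached at most 8.36 CPM in any adult class and library, 3.44% of the E18.5 level. Cytl1 had 0 counts in the adult epithelium of D12 and C57BL/6, which allows up to 0.0897 and 0.0459 CPM, and 7, 6 and 3 counts in A10, P7 and SWISS. The 6 counts of P7 were all in ML cells, at 1.62 CPM, and 0.0929% of its 1077 ML cells had one. Bex4 reached at most 23.0% of the E18.5 level, in ML cells of SWISS.

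**Figure D3:**
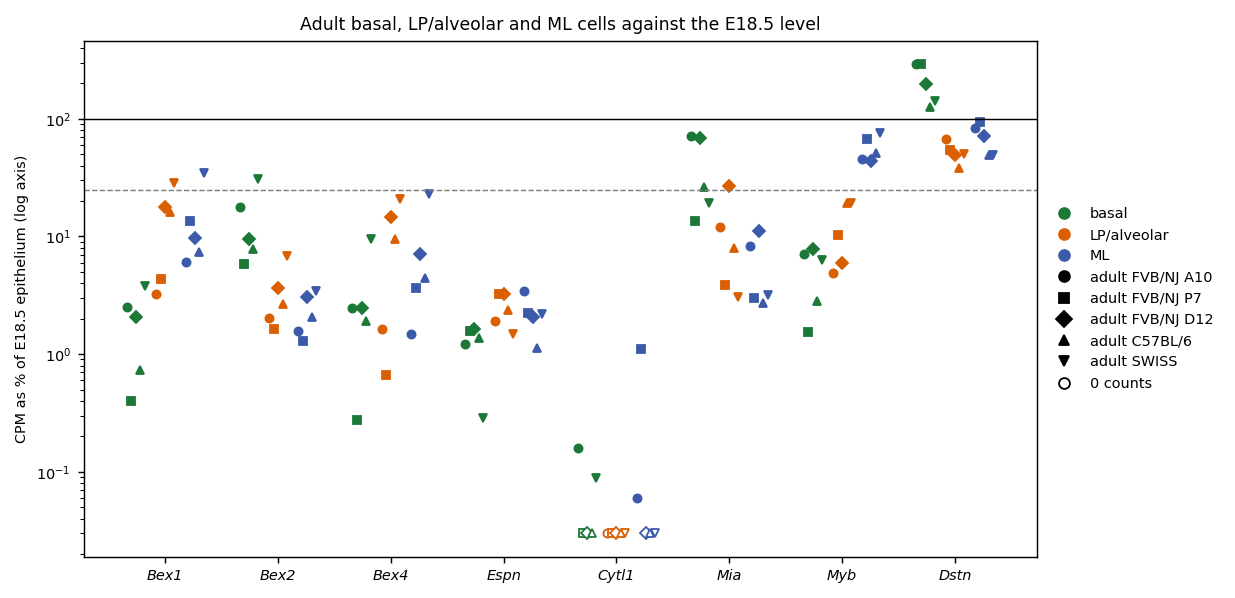
Level of each gene by class (basal, LP/alveolar, ML) in the 5 adult libraries as a percentage of the E18.5 epithelium (logarithmic vertical axis), 1 symbol per library; the solid line is the E18.5 level, the dashed line 0.25 times that level, and open symbols at the bottom are libraries with 0 counts. Dstn in all classes and Myb in ML cells lie above the dashed line in every library, Cytl1 lies at or under 1.11%, and Bex2 and Mia are highest in basal cells.

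The pregnancy-cycle libraries were used to ask whether the members come back when the epithelium grows again. The 9 FVB/NJ libraries were fitted together for each class with edgeR's quasi-likelihood test, testing 9600 genes in ML, 13279 in basal and 13412 in LP/alveolar cells. TMM scaling was used because milk transcripts took 74.2% and 76.7% of the epithelial UMIs of the lactation libraries. Scaling by library totals instead moved the median log2 fold change of all genes in LP/alveolar cells from -0.02 to -1.75 between pregnancy day 18.5 and lactation, and CPM values in lactation are low for the same reason. Fewer cells of a subtype within a class and less RNA per cell cannot be told apart in these sums.

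In basal cells 0 of 7 members were called at any step with edgeR's quasi-likelihood test or with DESeq2. From adult to pregnancy day 12.5, 1.27% of genes were called, from day 12.5 to 18.5 0%, and from day 18.5 to lactation 0.640%. At these steps 1, 3 and 2 of the 7 members had an unadjusted p under 0.05 with edgeR. So did 1899, 1174 and 1310 of all 13279 genes. Bex4 in basal cells stood at 1.66 and 1.34 CPM in H and G and at 0.0926 and 0.104 in F4 and B4, with a log2 fold change of -3.89 ± 1.09 (adjusted p = 0.316, edgeR). The basal cells of F4 and B4 held 10801801 and 9584896 UMIs, so their Bex4 values and the fold change rest on very few counts. Without adult P7 Bex4 was called at this step, the one call in basal cells when single libraries were left out.

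Among LP/alveolar cells, 2 of 7 members were lower in the day 12.5 libraries than in the adult, against 7.04% of all genes called lower. In the same comparison 6 of 8 cell cycle genes were higher (median log2 fold change 2.85), and the part of cycling cells in the members' values was not tested. Espn stood at 4.61, 7.83 and 7.88 CPM in A10, P7 and D12 and at 0.472 and 0.302 in H and G. It fell by 3.71 ± 0.56 on the log2 scale (adjusted p = 0.00414, edgeR), and the call was lost without H (adjusted p = 0.0655) or without G (0.0863). Mia stood at 30.4, 9.67 and 68.2 CPM in the adults and at 4.18 and 4.22 in H and G. It fell by 2.80 ± 0.72 (adjusted p = 0.0327, edgeR), a call lost without D12 (adjusted p = 0.0651), H (0.234), G (0.217), F4 (0.0579) or B4 (0.0577). DESeq2 called Myb lower as well, and without D12 edgeR called Bex1 and Bex4 higher at day 12.5, beside Espn lower.

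Over the rest of pregnancy no member was called in LP/alveolar cells with edgeR. Between day 12.5 and 18.5, 1.16% of all genes were called. An unadjusted p under 0.05 with edgeR was found for 4 of 7 members and for 2126 of 13412 genes. Bex1 stood at 18.5 and 17.4 CPM in H and G and at 2.10 and 1.84 in F4 and B4, a log2 difference of -2.69 ± 0.66 (adjusted p = 0.0831, edgeR). Myb went from 0.539 and 0.689 CPM to 0 counts in F4 and 0.0375 CPM in B4 (log2 difference -4.36 ± 1.07, adjusted p = 0.0845, edgeR), and Bex4 from 7.25 and 6.81 to 0.457 and 0.600 CPM (-3.23 ± 1.01, adjusted p = 0.146, edgeR). The LP/alveolar cells of B4 held 26671099 UMIs, so its Myb value and the Myb difference rest on very few counts. DESeq2 called Bex1, Bex4 and Myb lower, beside 249 of 13408 genes called lower. Without adult P7 edgeR called these 3 members lower too, while without D12 it called Bex1 and Bex4. The 2 pregnancy stages were apart without overlap for the 3 genes. With 2 libraries each, unchanged genes are often apart as well, and the share over all genes was not counted, so this adds no weight.

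From pregnancy day 18.5 to lactation, 3.03% of genes were called in LP/alveolar cells, and 0 members were called by edgeR or DESeq2. An unadjusted p under 0.05 with edgeR was found for 3 of 7 members and for 2110 of 13412 genes. Without P7 edgeR called Bex2 lower and Mia higher. With all libraries Mia differed by 1.93 ± 0.74 (adjusted p = 0.235, edgeR) and Myb by 3.74 ± 1.23 (adjusted p = 0.153, edgeR) on the log2 scale, where positive values are higher in lactation, and Bex2 by -3.78 ± 0.98 (adjusted p = 0.0736, edgeR). Bex2 stood at 0.511 and 0.525 CPM in F4 and B4, at 0.0289 in F11 and at 0 counts in D6. Myb was 0.174 and 0.0276 CPM in F11 and D6. Their LP/alveolar cells held 34580223 and 72543992 UMIs, so these Bex2 and Myb values and their log2 differences rest on few counts. In lactation Bex1, Bex2, Bex4, Espn and Myb were at or under 0.234 CPM in the LP/alveolar class. Milk transcripts took 77.3% and 78.2% of the UMIs of this class in F11 and D6. These CPM values are therefore not comparable with those of earlier stages.

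In ML cells 1 of 6 members, Bex1, was higher at pregnancy day 12.5 than in the adult. It stood at 11.6, 25.7 and 18.6 CPM in the adults and at 62.2 and 75.6 in H and G at pregnancy day 12.5. It rose by 1.87 ± 0.48 on the log2 scale (adjusted p = 0.0396, edgeR), where 4.40% of all genes were called higher. DESeq2 made the same call. It held under 6 of 14 alternatives, all with the same sign, and was lost without A10 (adjusted p = 0.0735), D12 (0.076), H (0.215), G (0.335), F4 (0.0889) or B4 (0.0885), in cells with 1000 or more genes (0.0774) and with library totals (0.0617). Beside it, cell cycle genes were higher in the same comparison for 5 of 8 listed (median log2 fold change 2.92), and the part of cycling cells in the Bex1 value was not tested.

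Bex1 then stayed in ML cells. It stood at 86.7 and 82.8 CPM in F4 and B4, 52.1 and 211 in F11 and D6, and 50.5 in the post-involution library. The 6 pregnancy and lactation values all lay above the 3 adult ones, against an E18.5 level of 191 CPM. The loss limit of Bex1, set on the E18.5 epithelium, was 47.7 CPM. The same 6 values and the post-involution one were over it, and the 3 adult ones were under it. F11 and post-involution were near it, and this comparison with E18.5 carries no test. No member was called between pregnancy day 12.5 and 18.5 (0.0521% of genes) or between day 18.5 and lactation (0% of genes) in ML cells by edgeR or DESeq2. The ML class held at most 400 cells in each of these 6 libraries. Myb in ML cells was 38.2 and 47.0 CPM at day 12.5, 7.07 and 5.68 at day 18.5 (log2 difference -2.88 ± 0.90, adjusted p = 0.423, edgeR), and 33.0 and 1.08 in the 2 lactation libraries, which stood on either side of the day 18.5 values. Against its loss limit of 12.4 CPM, Myb was over at day 12.5 and in F11, and under at day 18.5 and in D6. The ML cells of F4, B4 and D6 held 1556822, 1232053 and 923860 UMIs, so these low values rest on few counts.

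**Figure D4:**
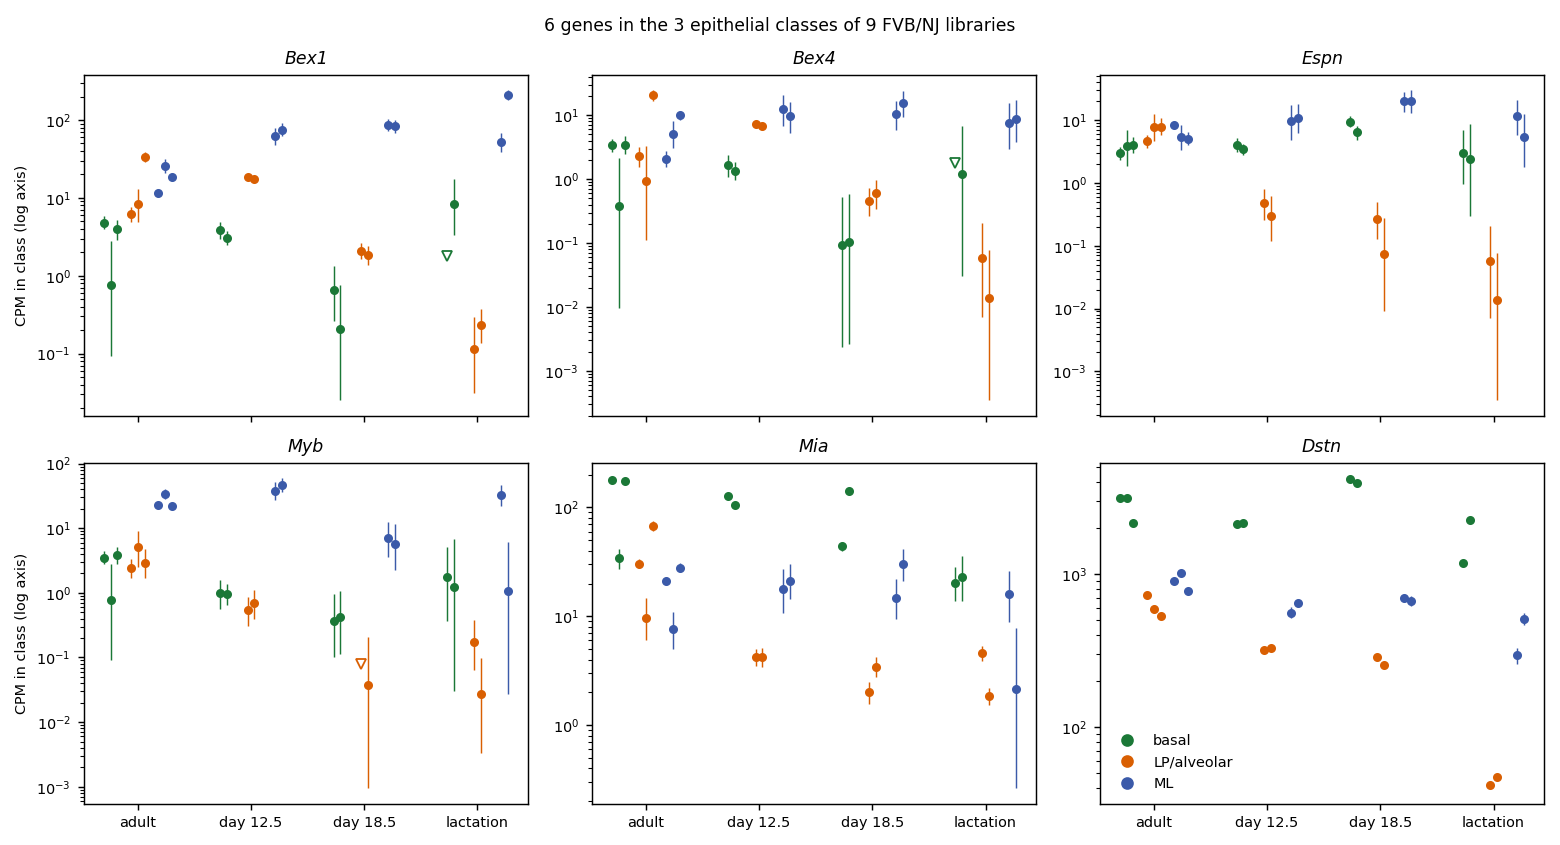
CPM of 6 members by class (basal, LP/alveolar, ML) in the 9 FVB/NJ libraries of adult, pregnancy day 12.5, pregnancy day 18.5 and lactation (logarithmic vertical axis), 1 point per library with its 95% counting interval; open triangles are libraries with 0 counts, drawn at the level of 3 counts. Bex1 in ML cells lies between 52.1 and 211 CPM in the 6 pregnancy and lactation libraries and between 11.6 and 25.7 in the adults, and Espn in LP/alveolar cells lies at or under 0.472 CPM from pregnancy day 12.5 on.

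After involution the epithelium of the 1 library held Bex1 at 25.2 CPM, Mia at 34.8, Myb at 7.84, Espn at 5.77 and Bex4 at 3.95. Bex1, Bex4 and Mia lay within the range of the 5 adult libraries, Espn just above it and Bex2 and Myb under it. Against the 3 FVB/NJ adults alone, Bex1 lay above their range of 8.15 to 16.1 CPM. Myb in ML cells was 15.3 CPM, under each of the 5 adult values. Cytl1 had 1 count in 9406 cells.

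The relatives of the members were looked at over the same step to day 5. Among all 8473 genes, 3.99% were at least 2-fold lower at day 5, so finding 0 among a few relatives is near that share. The members were chosen by this difference, so setting the relatives against them is no result. Of the 9 other Bex and Tceal genes listed, 4 reached 10 CPM in either library and 0 were at least 2-fold lower at day 5. Bex3, the gene whose promoter pairs with that of Bex2, went from 408 to 219 CPM, 1.86-fold lower (1.81 to 1.92), and stood at 181 to 293 CPM in the adult epithelium. Tceal9 went from 726 to 520.3 CPM and Tceal8 from 218 to 150.1. Among relatives of the other members, the cofilins Cfl1 (798 and 854 CPM) and Cfl2 (99.0 and 102) were nearly the same at both ages, and 0 of the 5 that reached 10 CPM were 2-fold lower. Otor, a secreted relative of Mia that did not reach that level, had 126 counts at E18.5 and 1 at day 5.

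Of 4 other rudiment genes named by the study, Serpine2 was at least 2-fold lower at day 5 (319.6 to 112 CPM), and Lcn2, Spint2 and Igfbp2 were not. These 4 were chosen by the study on these samples. Of 9 genes known from embryonic mammary development, 1 was 2-fold lower, Sox11 (127 to 20.7 CPM), and 5 were 2-fold higher. These 5 were Msx2, Sox9, and Wnt10b, Lef1 and Msx1, the last named above as also active in hair follicles. Among 4 actin bundling or severing genes that reached 10 CPM, Fscn1, which encodes the bundling protein fascin, was 3.70-fold lower (112 to 30.3 CPM), while Pls3 (6.84 to 36.3 CPM) and Gsn (35.2 to 107 CPM) were at least 2-fold higher. Of 8 cell cycle genes, 0 were 2-fold lower and 3 were 2-fold higher. The share of all genes at least 2-fold higher was not counted, so these counts of higher genes are no result about the lists.

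In the adult lineages, of 6 Bex and Tceal genes tested, 3 were lower in LP/alveolar than in basal cells (Bex3, Tceal3 and Tceal5), 4 were lower in ML cells (Tceal1, Tceal3, Tceal5 and Tceal8), and 0 were higher in either, by edgeR, beside 25.3% and 32.7% of all genes lower. The median log2 fold change was -0.37 and -0.70, against -0.01 and -0.04 over all genes. Against basal cells, the relatives of the other members had 1 higher and 3 lower of 6 in LP/alveolar cells and 1 and 4 in ML cells, and the 4 rudiment genes 2 and 2, then 1 and 3. The embryonic mammary genes had 3 higher and 3 lower of 7, then 3 and 4, and the actin genes 0 and 4 of 5, then 1 and 2. In the pregnancy cycle 1 call was made among the Bex and Tceal genes, Tceal1, 1 of 5 tested in the LP/alveolar class. It was lower at mid-pregnancy, where 7.04% of all genes were called lower.

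The genes most like each member were ranked by Pearson's r of log2(CPM + 1) in the epithelium over the 17 mammary libraries, among 10242 genes. These libraries share strain, depth and stage in blocks and E18.5 weighs heavily, so r is a description. Among members the closest pairs were Bex1 and Bex4 (r = 0.95) and Bex2 and Bex4 (0.93), with Bex1 and Bex2 at 0.86, while Cytl1 and Dstn were the least alike (0.11). Outside the members, Bex4 was most like Mns1 (0.97), Bex1 like Dcbld1 (0.94), Bex2 like Gjc1 (0.96) and Dstn like Sh3bgrl (0.97). Cytl1 was most like Uchl1 (0.96), which stood at 0.919 CPM at day 5, Espn like Mirg (0.96), a noncoding RNA that went from 25.7 to 5.11 CPM, and Mia like Phpt1 (0.93).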

How the data were processed

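Single-cell RNA was counted in 18 libraries with the 10x 3' method. The authors deposited raw UMI counts per gene and barcode, made with Cell Ranger against mm10; the submitters' notes give version 3.1.0 and some file headers 3.0.2. Cells with over 500 genes were kept within the study's upper limits, which were its guard against doublets, and no doublet caller was run. Cells were clustered with Seurat 5.3.0 at resolution 0.1 in 5 sets without the members and named from marker lists. Counts were summed per library and class and tested with edgeR 4.0.16 (quasi-likelihood, TMM, Benjamini-Hochberg), with DESeq2 1.42.0 as an alternative. Levels are CPM of these sums, with exact Poisson intervals, and shares come from cells thinned to 2000 UMIs, with Clopper-Pearson intervals, both at 95%. A count of 0 was given the limit of 3 counts. The tests were first run on simulated data. The members and lists were chosen with earlier results of these data known; by rule the genes named were the members, genes of the lists, and the 3 genes most like each member. Protein sequences were not analysed here, and 1 gene named by the likeness rule is not reported here.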

Additional observations from a re-analysis of the deposited data

Results flagged for a closer look

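The CPM of some members moved in opposite directions in different classes over the same step, in every library on each side; the difference between classes was not tested. Bex1 from pregnancy day 12.5 to 18.5 went from a mean of 3.47 to 0.428 CPM in basal and from 18.0 to 1.97 in LP/alveolar cells, but from 68.9 to 84.8 in ML cells. Espn from adult to day 12.5 went from 6.77 to 0.387 CPM in LP/alveolar and from 6.28 to 10.3 in ML cells. Over the next step it went from 0.387 to 0.172 CPM in LP/alveolar cells, from 3.75 to 7.86 in basal and from 10.3 to 20.1 in ML cells. Myb went from 3.47 to 0.614 CPM in LP/alveolar and from 26.0 to 42.6 in ML cells at day 12.5. Dstn from day 12.5 to 18.5 went from 324 to 272 CPM in LP/alveolar cells, from 2153 to 4073 in basal and from 606 to 684 in ML cells. With TMM scaling the fitted log2 difference of Dstn in LP/alveolar cells was 0.24 ± 0.41, so the opposite direction was there in CPM and not in the fit.

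Cells outside the epithelial classes held some members above the epithelium of the same library. Cytl1 stood at 99.1 CPM in other cells of adult A10 (38 counts in 2 of 142 cells), 195 in those of P7 (32 counts in 2 of 86 cells) and 3.23 after involution (4 counts in 1 of 430 cells). Bex4 stood at 47.4 CPM in other cells at pre-puberty (172 counts), Bex1 at 23.5 in other cells of A10 (9 counts), and Myb at 69.0 in 16 epidermal cells at pre-puberty (10 counts). Dstn stood in other cells at 1953 CPM in P7, 1565 in F4, 1758 in B4, 247 in F11, 273 in D6 and 1741 after involution, and at 247 in fibroblasts of D6. In F11 and D6 milk transcripts took 74.2% and 76.7% of epithelial UMIs, against 31.2% and 14.5% in other cells and 8.17% in D6 fibroblasts. The lactation values of Dstn are therefore not comparable in CPM between epithelium and these cells.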

How the results depend on the processing

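Gene by gene, 24 stages of loss stayed and 8 moved, and all 24 alternative shares of E18.5 cells with a UMI moved. Without the filter on low counts, 2 members were called from pregnancy day 12.5 to 18.5 and 1 from there to lactation in basal cells, 3 and 5 in LP/alveolar cells, and 1 and 1 in ML cells. Calls among all genes rose too. In basal cells they went from 0 higher and 0 lower of 13279 genes to 154 and 207 of 20585 at the first step. At the second they went from 77 and 8 to 432 and 112. DESeq2 called 3 members lower between the pregnancy stages in LP/alveolar cells, beside 249 of 13408 genes lower. Library totals in place of TMM gave 5 in LP/alveolar cells at lactation and 0 in ML cells at pregnancy day 12.5, and cells with 1000 or more genes also gave 0 there. Under library totals the calls of all genes in LP/alveolar cells at lactation went from 287 higher and 119 lower to 200 higher and 9845 lower. From adult to pregnancy day 12.5 they went from 826 and 944 to 469 and 1251, from day 12.5 to 18.5 from 121 and 35 to 58 and 166, and in basal cells at lactation from 77 and 8 to 57 and 29. Without the library block 3 members were called between LP/alveolar and basal cells in the adult. At postnatal day 5, a 4-fold limit left 3 members, and with 0.1 times the E18.5 level 2 were lost before adulthood rather than 7. Leaving out single libraries gave 5 to 6 calls in both lineage comparisons. In LP/alveolar cells it gave 0 to 3 at pregnancy day 12.5, 0 to 3 at day 18.5 and 0 to 2 at lactation, in ML cells 0 to 1, 0 to 0 and 0 to 0, and in basal cells 0 to 0, 0 to 1 and 0 to 0. The cause of these changes was not tested. No paired analysis was possible because the labels give the stages no shared replicate numbers; the lineage comparisons were made within libraries. Depth set a limit for genes of low level: in adult P7, the shallowest library, the limit of a count of 0 in epithelium was 0.349 CPM.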
